A study of Mus musculus with 6 samples.

Results

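The 4 probes of a mouse lncRNA and mRNA microarray described here are those named for Krt15, Krtap4-13, Col2a1 and Tmem212 (ASMM10P047539, ASMM10P047521, ASMM10P013071 and ASMM10P024556), which are 4 of 60915 probes. They were picked by probe name from the mRNAs higher in the hippocampus of Nrf2 (−/−) mice, so the values that separate the genotypes chose them, and their differences between genotypes are given as a description without a test. The arrays held hippocampal RNA from 3 wild-type Nrf2 (+/+) mice and from 3 Nrf2 (−/−) mice in which the Nrf2 gene was knocked out, with 1 array per mouse. All 6 mice were males of the ICR background, 3 to 4 months of age, received no treatment in the sources used here, and were not perfused. The genotype was read by PCR of tail DNA. The comparison of the genotypes asks which hippocampal transcripts differ when Nrf2, a transcription factor of the antioxidant response, is missing.

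Keratins are intermediate filament proteins of epithelia, and Krt15 is a type I keratin of basal cells of stratified epithelium and of the hair follicle. Keratin-associated proteins such as Krtap4-13 are cysteine-rich proteins of the hair shaft that cross-link hair keratins. Col2a1 encodes the chain of type II collagen, the main fibrillar collagen of cartilage. Tmem212 encodes a transmembrane protein that is used as a marker of ependymal cells, the ciliated cells that line the brain ventricles and beat to move cerebrospinal fluid. None of these is a usual marker of hippocampal neurons.

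The targeted gene was examined first. Nfe2l2, which encodes Nrf2, had a log2 signal of 12.20 ± 0.24 (SD, n = 3) in the Nrf2 (+/+) mice and of 7.93 ± 0.10 (SD, n = 3) in the Nrf2 (−/−) mice, and fell by 4.27 on the log2 scale. Every Nrf2 (−/−) array lay below every Nrf2 (+/+) array for this probe, the direction the labels give. The probe was named by matching its fold change, p-value and direction to the study's list of changed mRNAs. Its direction is thus no independent check of the labels. Between 65.5% and 75.7% of the probes were well above background on each array, and the median spot signal before normalization was 86.0 to 107 on the Nrf2 (+/+) arrays and 136 to 181 on the Nrf2 (−/−) arrays. The arrays had 4 different scan times, of which 1 was shared by both replicates 1 and another by both replicates 3. Arrays with the same scan time are called a slide here, which is inferred, since no slide label was read. A cut by the hour of the scan, set here, split the arrays into 2 sessions that each held both genotypes. The tissue label could not be checked against its markers, since only 1 of the 18 listed genes of hippocampal neurons (Dlg4) and 0 of the 10 of astrocytes and oligodendrocytes had a probe that could be named.

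Krt15 had a log2 signal, after quantile normalization between arrays, of 8.06, 6.69 and 7.45 in Nrf2 (+/+) replicates 1, 2 and 3, and of 8.57, 8.99 and 9.08 in Nrf2 (−/−) replicates 1, 2 and 3. The groups did not overlap, with Nrf2 (+/+) replicate 2 the lowest array of all and Nrf2 (−/−) replicate 1 the lowest of the knockouts, 0.51 above the highest Nrf2 (+/+) array. The means were 7.40 ± 0.69 (SD, n = 3) in Nrf2 (+/+) and 8.88 ± 0.27 (SD, n = 3) in Nrf2 (−/−), a difference of 1.48 on the log2 scale (standard error, SE, 0.35) or 2.79-fold. In extracts of whole tissue, more cells of a type and more RNA per cell cannot be told apart, and this holds for each of the 4 genes.

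Krtap4-13 differed more than the other 3 probes. Its log2 signal was 6.82, 6.89 and 6.48 in Nrf2 (+/+) replicates 1, 2 and 3, and 9.14, 9.50 and 9.18 in Nrf2 (−/−) replicates 1, 2 and 3. The arrays of each genotype lay close together, within 0.40 for Nrf2 (+/+) and 0.36 for Nrf2 (−/−), and the lowest knockout array was 2.25 above the highest Nrf2 (+/+) array. The means were 6.73 ± 0.22 (SD, n = 3) and 9.27 ± 0.20 (SD, n = 3), a difference of 2.54 (SE 0.21) or 5.82-fold.

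Col2a1 had a log2 signal of 8.84, 7.61 and 8.55 in Nrf2 (+/+) replicates 1, 2 and 3, and of 9.08, 9.96 and 9.88 in Nrf2 (−/−) replicates 1, 2 and 3. Nrf2 (+/+) replicate 2 again was the lowest array and Nrf2 (−/−) replicate 1 the lowest knockout, which cleared the highest Nrf2 (+/+) array by only 0.25. The means were 8.33 ± 0.64 (SD, n = 3) and 9.64 ± 0.48 (SD, n = 3), a difference of 1.31 (SE 0.38) or 2.47-fold.

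Tmem212 had a log2 signal of 9.03, 7.64 and 8.77 in Nrf2 (+/+) replicates 1, 2 and 3, and of 9.39, 10.42 and 10.21 in Nrf2 (−/−) replicates 1, 2 and 3. Its arrays stood in the same order as those of Col2a1, from Nrf2 (+/+) replicate 2 at the bottom to Nrf2 (−/−) replicate 2 at the top, and the groups were 0.35 apart without overlap. The means were 8.48 ± 0.74 (SD, n = 3) and 10.01 ± 0.55 (SD, n = 3), a difference of 1.53 (SE 0.42) or 2.88-fold.

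**Figure D1:**
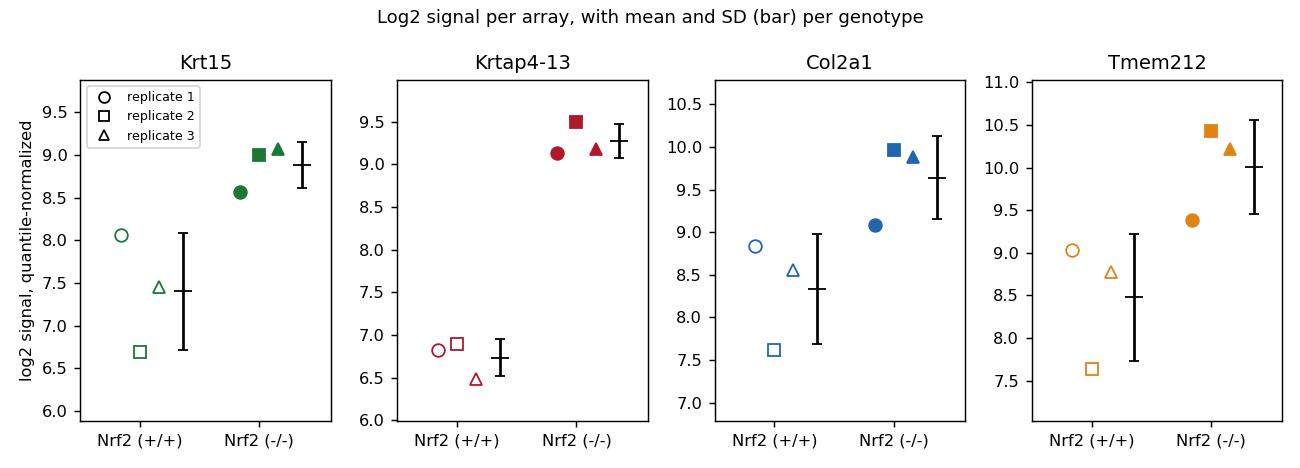
Log2 signal after quantile normalization (vertical axis, of the same span but another centre in each panel) of the Krt15, Krtap4-13, Col2a1 and Tmem212 probes on each array, by genotype, with open symbols for Nrf2 (+/+), filled symbols for Nrf2 (−/−), the symbol's shape for the replicate number and a bar for the mean ± SD of 3 mice. The gap between genotypes is 2.25 for Krtap4-13 and 0.25 to 0.51 for the other 3 probes.

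Each of the 4 genes was read by a single spot per array, which was well above background and not saturated on all 6 arrays. The spot signals ran from 60.0 to 1667 before normalization, 4.84 to 69.0 times the local background, with an error of at most 13.03% of the signal as the scanner software estimated it. Each gene was thus read by 1 probe, and no second probe was set beside it.

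At the thresholds that the study's methods give for mRNAs, an unadjusted p under 0.05 and a fold change above 1.5, applied here to lncRNA and mRNA probes alike (the methods set a higher fold for lncRNAs), 544 of 43528 tested probes (1.25%) were higher in Nrf2 (−/−) by limma, and the 4 probes were among them, as their choice requires. With a test that lets the variances of the genotypes differ and borrows none from other probes, Krt15, Col2a1 and Tmem212 did not meet these thresholds and Krtap4-13 did. All 3 Nrf2 (−/−) arrays lay above all 3 Nrf2 (+/+) arrays for 1841 of 43366 probes (4.25%) and for the 4 probes. After adjustment by Benjamini and Hochberg across the 43528 probes, 6 of 43528 (0.0138%) were higher at an adjusted p under 0.05, and 1 of the 4, Krtap4-13, was one of them. Since this contrast chose the 4 genes, that is a count and no test of Krtap4-13. That call for Krtap4-13 was lost in 5 of the 6 fits that left out 1 array each and was kept only without Nrf2 (−/−) replicate 2, while its difference over these 6 fits was 2.42 to 2.62. Among the 109 higher mRNAs that could be named, Krtap4-13 stood at rank 4, Tmem212 at rank 9, Krt15 at rank 11 and Col2a1 at rank 13 by the size of the difference, and the median of the 109 was 0.78.

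The difference of Krt15, Col2a1 and Tmem212 varied with the slide. Within the slide that held both replicates 1, the difference was 0.51 for Krt15, 0.25 for Col2a1 and 0.35 for Tmem212, and within the slide of both replicates 3 it was 1.63, 1.32 and 1.44. For Krtap4-13 it was 2.32 and 2.69 within the same slides. With the slide as a block, the difference was 1.07 for Krt15, 2.51 for Krtap4-13, 0.78 for Col2a1 and 0.90 for Tmem212, in a model that rests on those 2 slides. The scan sessions split the same 3 genes in a like way, with 0.72 for Krt15, 0.69 for Col2a1 and 0.87 for Tmem212 in session 1, against 2.01, 1.79 and 2.01 in session 2, whereas Krtap4-13 gave 2.50 and 2.49. Session 1 held Nrf2 (+/+) replicate 1 and Nrf2 (−/−) replicates 1 and 2, and session 2 held the others, so that a slide or session holds too few mice to tell its own level from that of a mouse.

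**Figure D2:**
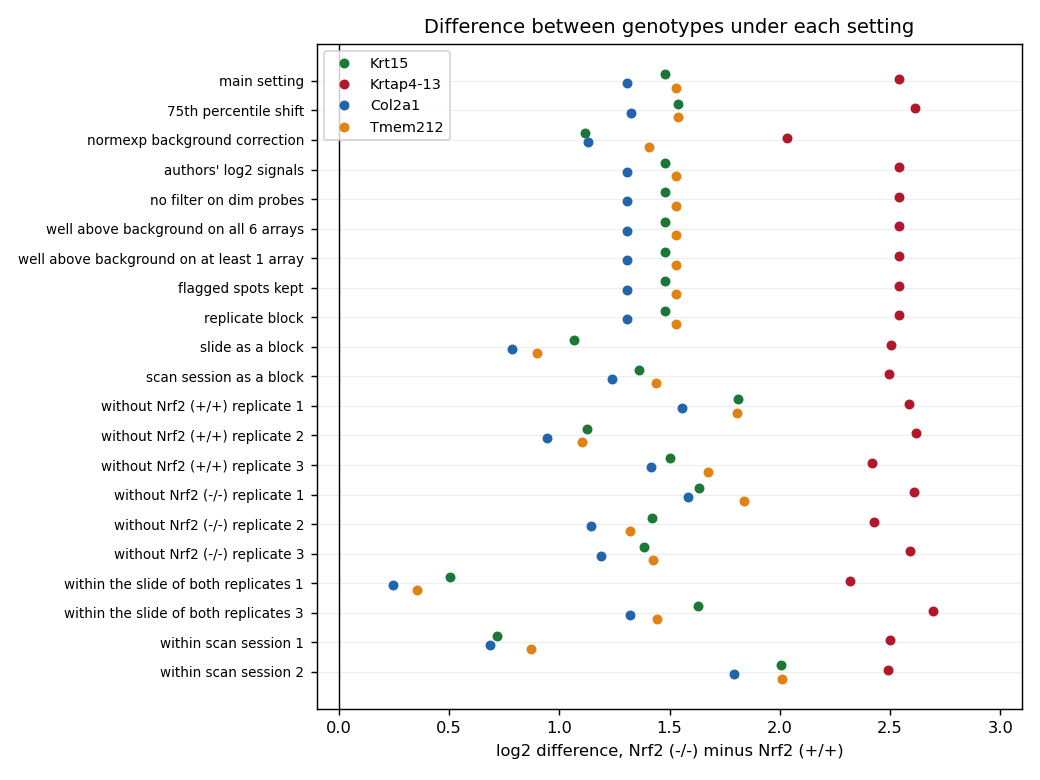
Difference of the log2 signal, Nrf2 (−/−) minus Nrf2 (+/+) (horizontal axis), of each of the 4 probes (coloured points) under the main setting and each alternative setting (vertical axis). All points lie above 0, Krtap4-13 between 2.03 and 2.69, and the other 3 genes fall to between 0.25 and 0.51 within the slide of both replicates 1.

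How the 4 genes varied between mice of the same genotype was described by the deviation of each array from the mean of its genotype. The spread within a genotype enters the p-value by which the study listed these mRNAs, so the spreads and correlations of the deviations are a description and are not independent of the choice of the genes. The SD of these deviations was 0.52 for Krt15, 0.57 for Col2a1 and 0.65 for Tmem212, above those of 82.8%, 86.5% and 91.6% of the tested probes, of which the median was 0.32. Krtap4-13, with an SD of 0.21, was above 23.5% of the probes only.

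Krt15, Col2a1 and Tmem212 deviated together. On the array of Nrf2 (+/+) replicate 2 they lay −0.71, −0.72 and −0.84 from their genotype mean, and on that of Nrf2 (−/−) replicate 1 they lay −0.31, −0.56 and −0.62 from it. On the 4 other arrays all 3 were above their genotype mean, with the highest values, 0.66, 0.50 and 0.55, in Nrf2 (+/+) replicate 1. Krtap4-13 lay at 0.09, 0.16 and −0.25 in Nrf2 (+/+) replicates 1, 2 and 3 and at −0.13, 0.23 and −0.09 in the Nrf2 (−/−) replicates, and so was above its mean in the wild-type mouse in which the others were lowest.

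**Figure D3:**
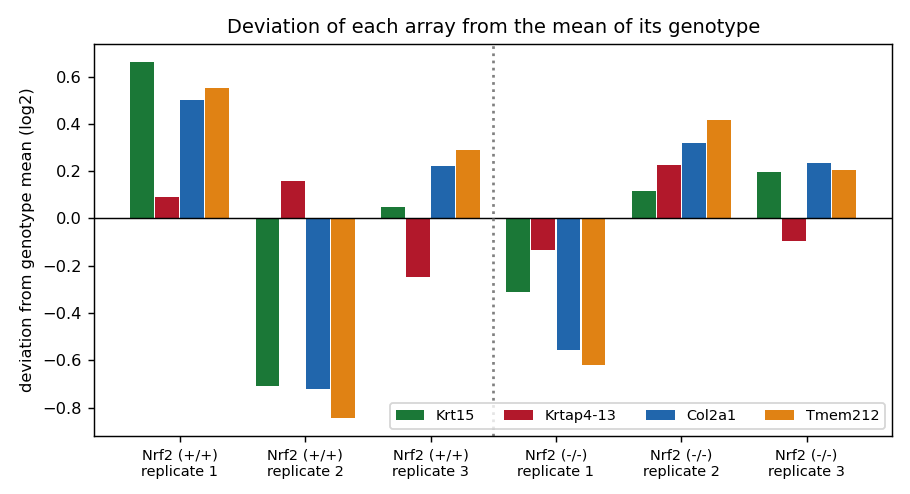
Deviation of the log2 signal from the mean of the array's own genotype (vertical axis) for each of the 6 arrays (horizontal axis), with a bar for each of the 4 probes. Krt15, Col2a1 and Tmem212 are negative together in Nrf2 (+/+) replicate 2 and Nrf2 (−/−) replicate 1 and positive together on the other arrays, and Krtap4-13 is not.

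Over the 6 arrays, which leave 4 degrees of freedom once the genotype means are taken out, the Pearson correlation r of the deviations was 0.94 between Krt15 and Col2a1, 0.92 between Krt15 and Tmem212, and 1.00 (0.997) between Col2a1 and Tmem212. Within the 3 mice of a genotype the same 3 correlations were 0.96 to 1.00 in Nrf2 (+/+) and 0.94 to 0.99 in Nrf2 (−/−). Krtap4-13 gave −0.03 with Krt15, 0.01 with Col2a1 and 0.01 with Tmem212. Its 3 correlations had opposite signs between the genotypes, from −0.48 to −0.21 in Nrf2 (+/+) and from 0.46 to 0.73 in Nrf2 (−/−), over 3 mice each. The arrays share slides, scan sessions and normalization. Of the 43365 other tested probes, r was above 0.9 for 3.27% with Krt15, 5.69% with Col2a1, 5.48% with Tmem212 and 4.09% with Krtap4-13. Without Nrf2 (+/+) replicate 2, the correlations among Krt15, Col2a1 and Tmem212 were 0.78 to 0.99, and those with Krtap4-13 were 0.66 to 0.72.

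The named mRNAs whose deviations were most like those of each gene came from a pool in which 303 of 412 were lower in the knockout. For Krt15 these were Mup16 (r = 0.997), Kat7 (r = 0.996) and Mup10 (r = 0.98), with differences between genotypes of −1.03, −1.61 and −1.15. Mup10 and Mup16 encode major urinary proteins, pheromone carriers made by a family of near-identical genes, so which of the copies these probes read is uncertain, and Kat7 encodes a histone acetyltransferase. For Col2a1 they were Tmem212, Mup10 (r = 0.98) and Gpr84 (r = 0.98), the last of these a receptor of microglia and other myeloid cells with a difference of 1.13. For Tmem212 they were Col2a1, Adh1 (r = 0.99) and Anxa5 (r = 0.98). Adh1, an alcohol dehydrogenase, was not well above background on any Nrf2 (+/+) array, and Anxa5, the phospholipid-binding annexin A5, differed by −0.71. For Krtap4-13 they were Usp47 (r = 0.98), a deubiquitinating enzyme, Sfmbt2 (r = 0.98), a Polycomb group protein, and Vmn1r199 (r = 0.97), a vomeronasal receptor, with differences of −1.56, −2.36 and −1.92.

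Tmem212 was next set beside other genes of motile cilia. Of a list of 71 such genes, 14 had a probe that could be named, and because names could be given only to mRNAs that the study had called changed, the directions of these genes are no independent evidence. Besides Tmem212, 11 of the 13 were higher in Nrf2 (−/−) and 2, Dnah2 and Tekt4, were lower, where 109 of all 412 named mRNAs were higher. Named genes of cilia or centrioles outside this list, among them Cc2d2a, Hyls1, Alms1 and Ccdc66, were lower, and B230118H07Rik (Iftap) was higher. The count by direction thus depends on which genes were listed. The median r of the 13 with Tmem212 was 0.33, beside −0.07 over all tested probes and 0.20 over the named ones, and it ran from −0.81 (Ccdc42) to 0.96 (Ttll6). Ccdc42 passed the background test in only 1 of the 3 Nrf2 (+/+) mice, and its SD in that genotype was 0.04. For 8 of the 13 r was above 0 and for 5 below it, and 5 were not well above background on any Nrf2 (+/+) array. The summed signal of the 13 probes, on the linear scale and without Tmem212, was 1593 to 1898 in Nrf2 (+/+) and 1706 to 2027 in Nrf2 (−/−). The lower genes Tekt4 and Dnah2 had the highest mean signals of the 13 in Nrf2 (+/+), so the sum in that genotype rests largely on them. In Nrf2 (−/−) Dnah2 had a mean of only 4.72, and most of the sum came from the other 11. The sums of the genotypes thus rest on different genes and do not describe the change of the other 11.

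Ttll6, a ligase that adds glutamate chains to the tubulin of cilia, followed Tmem212 most closely (r = 0.96), at 6.31, 5.40 and 6.27 in Nrf2 (+/+) replicates 1, 2 and 3 and at 6.65, 7.27 and 7.47 in the Nrf2 (−/−) replicates, again with the same array lowest in each genotype. Nek10, a kinase of ciliated cells, did so too (r = 0.94), but was not well above background on any Nrf2 (+/+) array. Ift46, a subunit of the intraflagellar transport complex, was at 6.44 ± 0.23 in Nrf2 (+/+) and 7.74 ± 0.17 in Nrf2 (−/−) (SD, n = 3 each) and varied opposite to Tmem212 between mice, with r = −0.75. Trp73, a transcription factor needed for multiciliated cells, was at 6.85 ± 0.06 and 7.44 ± 0.05 (SD, n = 3 each), so close within each genotype that nothing is read from its correlation. Tekt1, a filament protein of the axoneme, had r = −0.48 and Nme9 had r = −0.39, both with no Nrf2 (+/+) array well above background.

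Between these lay Spag1, an assembly factor of the dynein arms, with r = 0.24 and a difference of 1.04, and Ccsap with r = 0.70 and a difference of 0.76. Daw1 (r = 0.40) and 1700012P22Rik (r = 0.73) were well above background on the Nrf2 (−/−) arrays alone. Dnah2, a heavy chain of the inner dynein arm, was at 7.76 ± 0.93 (SD, n = 3) in Nrf2 (+/+) and 4.72 ± 0.77 (SD, n = 3) in Nrf2 (−/−), a difference of −3.04 (SE 0.53) opposite to that of Tmem212, with r = 0.33 and 1 of the 3 Nrf2 (−/−) arrays well above background. Tekt4, another tektin, differed by −0.67 and had r = 0.67.

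**Figure D4:**
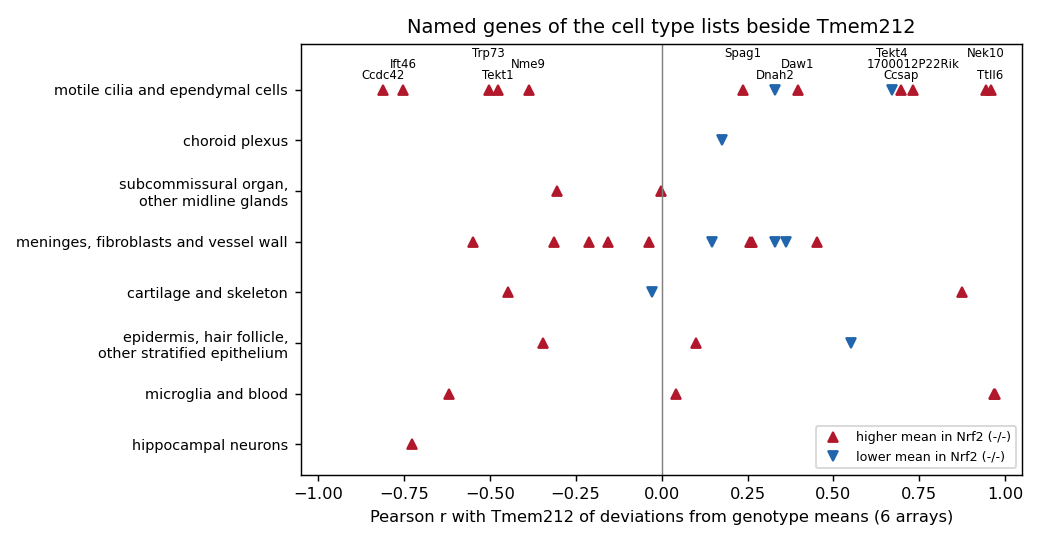
Pearson r, over 6 arrays, between the deviations of Tmem212 from its genotype means and those of each named probe (horizontal axis) in 8 lists of cell type genes (vertical axis), with red triangles for a higher and blue triangles for a lower mean in Nrf2 (−/−). The named motile cilia genes spread from −0.81 to 0.96, and the 4 microglia and blood genes lie at −0.62 (Itgal), 0.04 (Fcrls) and 0.97 (Emr1 and Gpr84).

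For Col2a1, no other collagen had a probe that could be named, and 4 of the 26 listed cartilage and skeleton genes did. The list left out Omd and Phospho1, named genes of the skeleton that were lower in the knockout. Sox9, the transcription factor that drives Col2a1 in cartilage and is also made by astrocytes and ependymal cells, was at 9.72 ± 0.20 (SD, n = 3) in Nrf2 (+/+) and 10.45 ± 0.19 (SD, n = 3) in Nrf2 (−/−), a difference of 0.73 (SE 0.21). Its deviations gave r = −0.47 with those of Col2a1. Chia1, a chitinase that is no usual marker of cartilage, differed by 0.77 with r = 0.89, and Ucma, a secreted protein of cartilage, by −1.10 with r = −0.03. The summed linear signal of these 3 probes, without Col2a1, was 942 to 1104 in Nrf2 (+/+) and 1422 to 1748 in Nrf2 (−/−), most of it from Sox9.

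For Krt15 and Krtap4-13, no other keratin or keratin-associated protein had a probe that could be named. Of the 33 listed genes of epidermis and hair, 5 did. The list left out Ppl and Casp14, named genes of epidermis that were lower in the knockout. Among the listed genes, Dsp, which encodes the desmosomal protein desmoplakin, differed by −1.73 (SE 0.29), opposite to Krt15 and Krtap4-13. Klk11, a serine protease, differed by 0.65, and Lce1m, of the cornified envelope, was well above background on the Nrf2 (−/−) arrays alone. With Krt15 these 3 genes gave r = 0.47, 0.01 and 0.00, and with Krtap4-13 they gave 0.83, 0.80 and −0.18. The summed linear signal of these 3 probes was 474 to 695 in Nrf2 (+/+) and 249 to 386 in Nrf2 (−/−). In Nrf2 (+/+) this sum was set mainly by Dsp, the brightest of the 3. In Nrf2 (−/−) the mean log2 signals of Dsp (7.14) and Klk11 (6.84) were close, so the sum there rests on both.

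Markers of other tissues around the hippocampus were set beside the 4 genes. These too could be named only where the study had called the mRNA changed, so the counts by direction are no independent evidence. Of 15 genes of microglia and blood, 4 could be named and all 4 were higher, beside 109 of the 412 named mRNAs. Their summed linear signal was 1423 to 2131 in Nrf2 (+/+) and 2785 to 3523 in Nrf2 (−/−), most of it from Emr1. Named genes of macrophages and other myeloid cells outside this list, among them Mrc1, Cd163, Cd84 and Ms4a6d, were lower in the knockout. That all 4 were higher therefore depends on which genes were listed. Emr1, the macrophage receptor F4/80, gave r = 0.97 with Krt15, 0.97 with Col2a1 and 0.97 with Tmem212, and Gpr84 gave 0.89, 0.98 and 0.97, whereas Fcrls gave −0.33, 0.00 and 0.04 and Itgal −0.86, −0.65 and −0.62. Itgal was not well above background on any Nrf2 (+/+) array, so it passed the filter only through the knockouts, and Fcrls varied little between mice (SD 0.05 and 0.07). Of 38 genes of meninges, fibroblasts and vessel wall, 9 could be named by 11 probes. Of these probes 8 were higher and 3 lower, against the same 109 of 412. Named genes of vessel cells outside this list, among them Ly6c1, Ly6a and Mfsd2a, were lower, so this count also depends on the list. The r of the 11 probes with Tmem212 ran from −0.55 to 0.45. Their summed signal was 5117 to 7759 in Nrf2 (+/+) and 5241 to 5900 in Nrf2 (−/−). Both probes of Fn1, which were lower in the knockout, had the highest mean signals of the 11 in Nrf2 (+/+). They weigh most in the sum of that genotype, in which this 1 gene is counted by both probes. In Nrf2 (−/−) the highest means were those of Sdc2 (10.98) and Sspn (10.25). Tfpi2, 1 of the 8 higher, was not well above background on any Nrf2 (+/+) array. Of 22 choroid plexus genes only Enpp2 could be named, and it differed by −2.06. Of 11 genes of the subcommissural organ and other midline glands, Sspo and Lhb could be named, and they differed by 0.85 and 0.94. The part of such tissue in the values of the 4 genes was not tested.

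Krtap4-13 and Krt15 lie on chromosome 11 and belong to the same cluster of keratin genes. In the RefSeq annotation of GRCm38.p6, 22 protein-coding genes lie between them, of which 8 are named as keratins and 8 as keratin-associated proteins, and 0 of the 22 had a probe that could be named. Col2a1 lies on chromosome 15 and Tmem212 on chromosome 3.

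The promoters of Krtap4-13 and Tmem212 are printed as the start regions of the gene with the widest gap between genotypes and of the ependymal gene. They are RefSeq sequences of GRCm38.p6, from 250 bases before to 50 bases after the start site, chr11:99809847-99810146 and chr3:27896319-27896618, both on the minus strand and written 5′ to 3′ in the direction of the gene, and 2 of the 4 genes matched the table. The capitals mark TATAAA, the TATA box, on either strand.
Krtap4-13: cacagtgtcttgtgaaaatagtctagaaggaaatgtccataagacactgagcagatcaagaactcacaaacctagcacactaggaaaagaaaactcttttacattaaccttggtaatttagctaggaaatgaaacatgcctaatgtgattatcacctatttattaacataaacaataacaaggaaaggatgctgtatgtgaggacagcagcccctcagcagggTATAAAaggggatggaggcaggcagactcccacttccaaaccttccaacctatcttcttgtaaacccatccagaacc
Tmem212: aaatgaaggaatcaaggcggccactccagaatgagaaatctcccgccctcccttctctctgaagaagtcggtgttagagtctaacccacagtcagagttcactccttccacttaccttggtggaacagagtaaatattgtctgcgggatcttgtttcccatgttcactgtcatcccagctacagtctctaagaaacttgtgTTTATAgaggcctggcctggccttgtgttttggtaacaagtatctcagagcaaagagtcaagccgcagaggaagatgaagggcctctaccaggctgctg
In Krtap4-13 the TATA box begins 27 bases upstream of the start site on the gene's own strand, and in Tmem212 the letters lie on the other strand, 49 bases upstream. The Krtap4-13 promoter is 40.7% G or C with 0 CpG, and that of Tmem212 is 48.7% G or C with 5 CpG. TATAAA is present in 13.6% of the 32851 promoters of the table. The core of the antioxidant response element to which Nrf2 binds, TGACNNNGC, and the motif of the RFX factors of ciliated cells, GTTGCC, which 12.4% and 12.5% of all promoters hold on either strand, were not found in either window.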

How the data were processed

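RNA depleted of rRNA from the hippocampus of 6 mice was labelled with Cy3 by random priming and hybridised to Arraystar Mouse LncRNA V3.0 arrays. The authors deposited the scanner's spot intensity per array, from Agilent Feature Extraction 11.0.1.1 per the submitters' processing notes, and their own table of quantile-normalized log2 signals. Here the processed intensity was put on the log2 scale, averaged per probe without outlier spots and control spots, and quantile-normalized with limma 3.58.1 in R 4.3.3. The 43528 probes that passed the background test on 3 or more of 6 arrays were fitted with lmFit and eBayes, with Benjamini-Hochberg adjustment, and SEs are from this fit. The deposited log2 table differed by a median of 0.000974 and served as an alternative. Correlations used deviations from genotype means.

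The members and lists were chosen with earlier results of these data known. The files do not name genes, so mRNA probes were named by matching the fold change and p-value printed in the study's list of changed mRNAs with those computed from the log2 table. With a tolerance of 0.0001, each of 412 entries matched 1 probe. The deleted gene, the 4 members, the named genes of the fixed lists and the 3 named mRNAs most like each member were given. The comparison columns of that list were used as keys only. The replicates are separate mice, and the number of arrays limits the precision. The limma fit was tested on simulated data, and the outcome is not given here.

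The alternatives were a shift to the 75th percentile, normexp correction (offset 50) of the median spot signal, the authors' log2 signals, 3 other filters on dim probes, outlier spots kept, the replicate number or slide as a block, values within slides, leaving out each array, the methods' t-test, Welch's test and a trend in the prior variance. The scan session as a block and values within sessions were chosen after seeing the data. Protein sequences were not used here.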

Additional observations from a re-analysis of the deposited data

How the results depend on the processing

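All 80 alternative values of the 4 differences were positive, and 71 moved by less than the spread between mice. That spread was the gene's SD within genotypes, 0.52 for Krt15, 0.21 for Krtap4-13, 0.57 for Col2a1 and 0.65 for Tmem212. The 71 include the values from the 3 other filters and the replicate block, which equal the main value by design and could not move. They also include the slide-block values of Col2a1 (0.78, main 1.31) and Tmem212 (0.90, main 1.53). With 1 array left out, the difference was 1.12 to 1.81 for Krt15, 2.42 to 2.62 for Krtap4-13, 0.95 to 1.58 for Col2a1 and 1.11 to 1.84 for Tmem212, the lowest for Krt15, Col2a1 and Tmem212 without Nrf2 (+/+) replicate 2. Within the slide of both replicates 1 it was 0.51 for Krt15, 2.32 for Krtap4-13, 0.25 for Col2a1 and 0.35 for Tmem212. Within scan session 1 it was 0.72 for Krt15, 0.69 for Col2a1 and 0.87 for Tmem212, within session 2 it was 2.01 for Krt15, and with normexp it was 2.03 for Krtap4-13. The mean r over the 6 pairs of genes was 0.47, and 0.34 to 0.78 with 1 array left out. The 544 probes higher at the thresholds for mRNAs, applied to all probes, became 1003 with the 75th percentile shift, 225 with normexp, 362 when all 6 arrays had to be above background, 2288 with the slide as a block, 285 with the methods' t-test, 213 with Welch's test and 353 to 2371 with 1 array left out, lowest without Nrf2 (+/+) replicate 3 and highest without Nrf2 (+/+) replicate 2. Without Nrf2 (−/−) replicate 1 there were 908 and without Nrf2 (−/−) replicate 3 there were 818. With Welch's test 1 of the 4 genes, Krtap4-13, met those thresholds. The 6 probes at an adjusted p under 0.05 became 10 with the 75th percentile shift, 2 without a filter, 3 with the filter on all 6 arrays, 102 with the slide as a block, and 2 to 26 with 1 array left out, 26 without Nrf2 (−/−) replicate 2. The methods' t-test and Welch's test gave 0 each after adjustment, with 994 and 702 at an unadjusted p under 0.05. The adjusted call of Krtap4-13 held in 10 of 19 alternatives. The cause of these changes was not tested.

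The values do not settle whether replicate numbers pair the mice, and the mice were not paired in the main fit. The deviations of same-numbered arrays had r = −0.15, 0.43 and 0.81 for numbers 1, 2 and 3, and 4 of 6 arrays were most like the array of their own number. Both replicates 1, and both replicates 3, also shared a slide, so slide and number cannot be told apart for them. With the replicate block, limma gave 1235 higher probes at the thresholds for mRNAs and 0 at an adjusted p under 0.05 (3968 at an unadjusted p under 0.05). Filters on dim probes leave the correlations between the 4 genes as they are, since all 4 passed them.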
